A study of Mus musculus with 23 samples.

Results

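The parathyroid hormone (PTH) receptor, RANKL, OPG and M-CSF axis was followed through 6 genes in marrow-depleted mouse bone. The genes were Pth1r, Tnfsf11, Tnfrsf11b, Tnfrsf11a, Csf1 and Csf1r, chosen by symbol among the 17644 genes with a TPM value, a transcript level scaled for transcript length and for the library. All 6 were among the 14364 genes with enough counts to be tested. The study asked how type 1 diabetes (T1D) alters bone when the NADase SARM1 is absent. Wild-type (WT) and Sarm1-KO (KO) mice were each studied with and without T1D, with 5 mice in WT Control, 6 in each of the other groups (WT T1D, KO Control, KO T1D), and 1 RNA-Seq library a mouse. All 23 were C57BL6/N females at 11 weeks of age, and the knockout covered the whole animal. In the T1D groups, diabetes had been induced 3 weeks earlier with repeated injections of streptozotocin, which destroys insulin-producing cells, at 100 mg/kg each, with a further injection where fed glucose stayed under 300 mg/dL, whereas Control mice of both genotypes had received saline. Each library came from the femur and tibia of 1 hind limb after the epiphyses were cut off and the marrow was spun out.

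Osteoblasts, osteocytes and marrow stromal cells respond to PTH and PTH-related protein through the PTH receptor, and sustained signaling through it raises RANKL and lowers OPG in these cells. RANKL binds RANK on osteoclast precursors and drives them to become bone-resorbing osteoclasts, while OPG is a soluble decoy that binds RANKL and keeps it from RANK. M-CSF, through its receptor on cells of the monocyte lineage, keeps the precursors alive and lets them express RANK.

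Total counts ranged from 16938101 to 20135592 per mouse. Sarm1 itself had 5 to 32 counts per library and averaged 1.17 ± 0.403 CPM (counts scaled to the library total) in WT Control and 0.687 ± 0.293 with T1D (SD). Among the libraries labelled KO the means were 0.799 ± 0.503 without and 1.19 ± 0.259 with T1D (SD), so at these low counts its RNA did not set them apart. By qPCR, the paper found low Sarm1 expression in bone that the knockout significantly reduced. Other genes did differ between the genotypes, 4 of them among Control mice and 13 among T1D mice, with edgeR adjusted p values down to 2.0e-15 and 1.2e-16. KO is used here as the label. WT T1D mice A3905 and A3906 stood apart from the other 21 libraries. Their summed TPM over 11 osteoblast genes was 3743 and 3229, against 37372 to 83748 elsewhere. Their 8 chondrocyte genes summed to 46.2 and 52.1, against 328 to 1031, and their 10 B cell genes to 129 and 161, against 492 to 1164. Their 14 erythroid genes summed to 473259 and 472208 TPM, against 235937 to 410855 in the other mice. Their T cell genes (44.25 and 41.41, against 55.79 to 91.19) and endothelial genes (92.91 and 90.16, against 118.69 to 192.2) were also below the other mice. None of the 12 marker lists had a measured gene at 0 in every mouse, so osteoblast and osteoclast markers were present, as were those of marrow and blood cells. Mouse numbers starting with A17 were carried by 1 WT Control and 3 WT T1D mice and by no KO mouse, and the labels do not say what the numbers mean. Within A36 to A39, KO mice were numbered A3670 to A3683 or A3766, and WT mice A3767 or A3903 to A3909. Restricting to A36 to A39 therefore does not balance the numbers between genotypes. Several results that rest on A3905 and A3906 or on the A17 mice are given with and without them. The WT difference of Tnfrsf11b is given only with both A3905 and A3906 or with 1 mouse left out. The same holds for the Pth1r comparisons of genotypes that involve T1D mice.

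Pth1r encodes the PTH receptor, a G protein-coupled receptor (gene ID 19228, GRCm38.p6 chromosome 9, 110722085 to 110747145). Tnfsf11 encodes RANKL (21943, chromosome 14, 78277446 to 78308043), Tnfrsf11b OPG (18383, chromosome 15, 54250619 to 54278484) and Tnfrsf11a RANK (21934, chromosome 1, 105780673 to 105849444). Csf1 encodes M-CSF (12977, chromosome 3, 107741048 to 107760469) and Csf1r, described further on, its receptor tyrosine kinase. RefSeq promoter windows of this build matched 4 of the 6 genes. The 250 bases before the start are shown for Tnfsf11 (chr14:78308044-78308293, minus strand) and for the farthest upstream of 3 Pth1r starts (chr9:110747146-110747395, minus strand), because these are the ligand and the hormone receptor that the comparisons below turn on. Capitals mark matches on either strand to a CRE half-site (TGACG), a RUNX motif (TGTGGT) or a TATA motif (TATAAA), and no matches overlapped.
Tnfsf11: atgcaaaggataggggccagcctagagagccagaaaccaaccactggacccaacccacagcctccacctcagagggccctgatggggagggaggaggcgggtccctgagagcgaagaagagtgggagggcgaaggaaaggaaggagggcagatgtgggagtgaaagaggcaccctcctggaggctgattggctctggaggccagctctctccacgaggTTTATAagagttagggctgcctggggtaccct
Pth1r: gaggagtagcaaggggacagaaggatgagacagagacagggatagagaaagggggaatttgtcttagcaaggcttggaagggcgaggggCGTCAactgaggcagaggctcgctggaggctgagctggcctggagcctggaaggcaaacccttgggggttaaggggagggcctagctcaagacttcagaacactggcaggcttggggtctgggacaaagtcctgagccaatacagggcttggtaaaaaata
The Tnfsf11 window held 1 match, a TATA motif on the opposite strand, 32 to 27 bases before the start. The Pth1r window held 1 CRE half-site on the opposite strand, 161 to 157 bases before the start, and its other 2 windows held no match. Among all 32851 windows, 12.4% held the TATA motif, 17.8% the CRE half-site and 14.0% the RUNX motif. Reads were counted per gene, so the 3 Pth1r starts could not be told apart in the expression values.

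The 6 genes spanned a wide range of levels per length. Mean TPM over all 23 mice was 94.96 ± 14.7 for Csf1r, 73.3 ± 26.0 for Pth1r, 31.3 ± 5.83 for Csf1, 4.64 ± 1.62 for Tnfrsf11b, 2.28 ± 0.852 for Tnfsf11 and 1.66 ± 0.446 for Tnfrsf11a (SD). The 2 receptors on top of this order were close, with Csf1r above Pth1r in 22 of 23 mice at a median ratio of 1.29. Pth1r exceeded Csf1 in 21 of 23 mice, the exceptions being A3905 and A3906. Csf1 exceeded Tnfrsf11b in all 23 mice, by 4.09 to 14.6 times. The ligand RANKL was thus at a lower transcript level than its decoy OPG in 21 of 23 mice, with a median of 2.21 Tnfrsf11b transcripts for each from Tnfsf11. Tnfsf11 and its receptor Tnfrsf11a were the closest pair at the bottom of the order, with Tnfsf11 above Tnfrsf11a in 17 of 23 mice. The low genes rested on few counts. Tnfsf11 had 26 to 104 counts per mouse, and the exact 95% Poisson interval of the lowest was 16.98 to 38.1. Tnfrsf11a had 74 to 150 counts and Tnfrsf11b 78 to 270, whereas Csf1 had 1197 to 1880. These intervals cover counting error only.

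**Figure D1:**
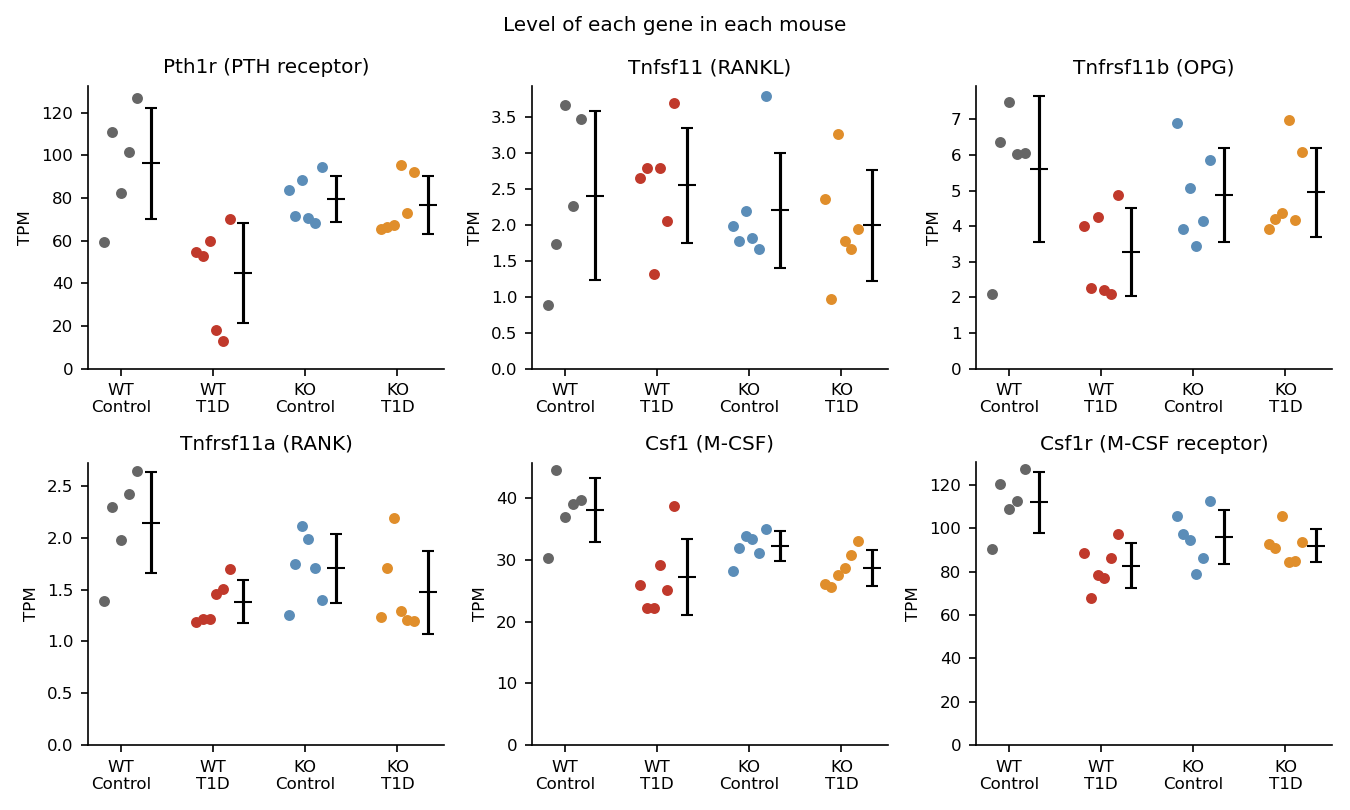
TPM of each of the 6 genes (vertical axes, each starting at 0) in every mouse, by group on the horizontal axis. Points are mice, and the bar beside each group is the mean ± SD. Mice A3905 and A3906 are the lowest 2 points of Pth1r in WT T1D, at 18.1 and 12.8 TPM.

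Pth1r had the largest fold difference of the 6 genes between WT T1D and WT Control bone. In WT Control mice, its level was 59.3, 82.1, 102, 111 and 127 TPM, with A1757 the lowest. In WT T1D mice, it ran from 12.8 to 70.3 TPM, with a median of 53.7. The groups overlapped through A1757, although 4 of 6 diabetic WT mice lay lower than any WT Control mouse and all 6 were below the WT Control mean of 96.2 ± 26.2 (SD). By edgeR on the counts, Pth1r differed by a log2 fold change of -0.88 ± 0.26 (SE), a level of 0.544 relative to WT Control, with an edgeR adjusted p of 0.0617 that missed the threshold of 0.05. DESeq2 on the same counts gave -0.88 with an adjusted p of 0.0365, so the call changed with the tool while the size did not, and DESeq2 called 6.98% of all tested genes. Across the whole table, 2.33% of genes passed the edgeR threshold in this comparison, and 0 of the 6 axis genes did. At an unadjusted edgeR p under 0.05 there was 1 of the 6, Pth1r, and 22.2% of all tested genes.

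In mice labelled KO, Pth1r was nearly level. KO Control mice ran from 68.4 to 94.7 TPM (median 77.6) and KO T1D mice from 65.3 to 95.5 TPM (median 70.0). The ranges covered each other, and the log2 fold change was -0.00093 ± 0.25 (SE, edgeR adjusted p = 1.000). The difference between the T1D changes of the genotypes was 0.88 ± 0.36 on the log2 scale (edgeR adjusted p = 0.479). Among T1D mice, KO exceeded WT by 0.64 ± 0.25 (edgeR adjusted p = 0.213), and 3 of 6 KO T1D mice were above every WT T1D mouse. Both of these values include A3905 and A3906, at 18.1 and 12.8 TPM. The remaining WT T1D mice ran from 52.9 to 70.3 TPM. Among Control mice, the KO difference was -0.23 ± 0.26 (edgeR adjusted p = 0.999). In bulk bone, fewer cells of a type and less RNA per cell cannot be told apart.

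The size of the Pth1r difference in WT mice depended on which mice were included. Among mice A36 to A39, 4 WT Control libraries ran from 82.1 to 127 TPM and 3 WT T1D libraries from 12.8 to 70.3 TPM, without overlap. edgeR on the A36 to A39 mice alone gave -1.40 ± 0.32 (adjusted p = 0.0141). Among the A17 mice, the single WT Control library stood at 59.3 TPM and the 3 WT T1D libraries at 52.9 to 59.9 TPM, a comparison that rests on 1 Control library. Without A3905 and A3906, the difference was -0.51 ± 0.16 (edgeR adjusted p = 0.289), with an unadjusted p still under 0.05 as in the fit to all mice, and no gene of the table passed. With a score of 14 erythroid genes as a covariate, it was -0.20 ± 0.28 (edgeR adjusted p = 1.000). All 14 of these genes had a positive log2 fold change in WT T1D, and the score may itself respond to T1D. The fit with it therefore cannot tell a change with T1D from a change with the score.

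The summed osteoblast genes were lowest in A3905 and A3906, as was Pth1r. The 6 osteocyte genes were not, at 236 and 256 TPM in these mice against 113 to 370 in the other 21. The 11 osteoblast genes, led by Bglap and Col1a1, summed to 37372 to 77062 TPM in WT Control and 3229 to 49758 in WT T1D. In KO Control they summed to 37945 to 83748 TPM and in KO T1D to 40472 to 63700. By edgeR, 2 of the 11 were lower in WT T1D and 0 higher, while 2.33% of all tested genes passed. For each 1000 TPM of the osteoblast list, a measure chosen after the values were seen, Pth1r had 4.83 TPM in A3905 and 3.96 in A3906. In the other 21 mice this ranged from 1.13 to 1.88. Pth1r was thus lower by a smaller factor than the summed osteoblast genes in both mice, and the part of cell composition in the Pth1r values was not tested.

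**Figure D2:**
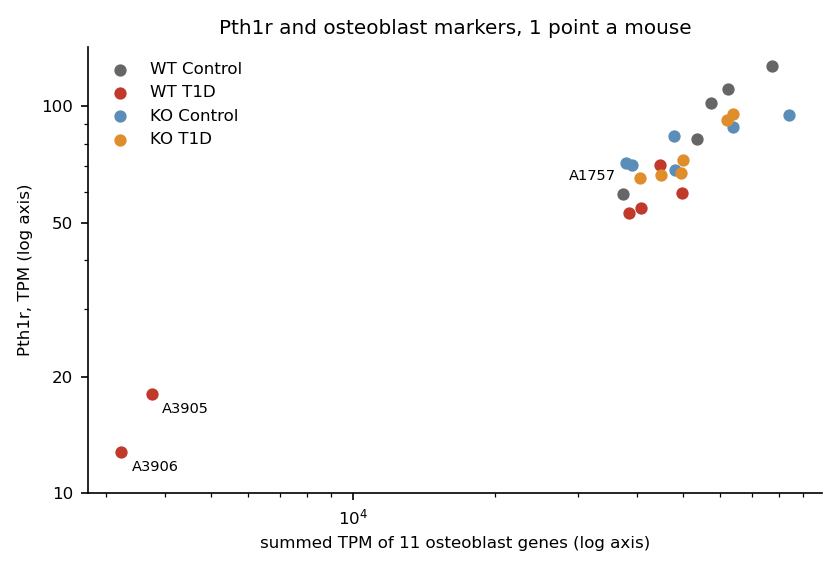
Pth1r TPM (vertical, log axis) against the summed TPM of 11 osteoblast genes (horizontal, log axis), 1 point a mouse, colored by group. A3905 and A3906 lie apart at 3743 and 3229 summed TPM, while the other 21 mice lie between 37372 and 83748.

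Tnfsf11, the RANKL gene, did not separate the groups. Its level in WT Control mice was 0.880, 1.74, 2.26, 3.48 and 3.67 TPM, and in WT T1D mice it ran from 1.32 to 3.70 TPM with a median of 2.72. The 5 WT Control mice thus spanned nearly the whole range of the series. The log2 fold change on counts was 0.39 ± 0.31 (SE, edgeR adjusted p = 0.475). KO Control mice ran from 1.66 to 3.79 TPM (median 1.91) and KO T1D mice from 0.970 to 3.27 TPM (median 1.86), with a log2 fold change of -0.092 ± 0.29. Among T1D mice, Tnfsf11 was 0.56 ± 0.29 lower in KO on the log2 scale (log2 fold change -0.56, edgeR adjusted p = 0.331), and 5 of 6 KO T1D mice were below the WT T1D mean. With the erythroid covariate, the WT difference became 0.92 ± 0.40 (edgeR adjusted p = 1.000).

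Tnfrsf11b, the OPG gene, had lower mean levels in WT T1D. Its WT Control mice were at 2.08, 6.02, 6.05, 6.36 and 7.49 TPM, so 4 of the 5 were close together and A1757 was far below. WT T1D mice ran from 2.09 to 4.87 TPM (median 3.13), and all 6 lay below the WT Control mean of 5.6 ± 2.06 (SD) and above A1757. The log2 fold change was -0.49 ± 0.24 (SE, edgeR adjusted p = 0.238). KO Control mice ran from 3.43 to 6.89 TPM (median 4.60) and KO T1D mice from 3.93 to 6.97 TPM (median 4.29), a log2 fold change of 0.084 ± 0.23. The difference between genotypes was 0.58 ± 0.34 (edgeR adjusted p = 0.544). Among T1D mice, KO was higher by 0.43 ± 0.23 (edgeR adjusted p = 0.349), and all 6 KO T1D mice lay above the WT T1D mean.

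The series of mouse numbers also mattered for Tnfrsf11b. In the A36 to A39 mice, 4 WT Control libraries ran from 6.02 to 7.49 TPM and 3 WT T1D libraries from 2.09 to 4.87 TPM, without overlap, and edgeR on these mice alone gave -0.75 ± 0.24 (adjusted p = 0.0394). In the A17 mice, the WT Control library was at 2.08 TPM and the 3 WT T1D libraries were at 2.25 to 4.27 TPM, all above it. The direction thus differed between the 2 series of numbers, and 1 Control library in the A17 series allows no test. With the erythroid covariate, which itself differed with T1D in WT mice, the log2 fold change was 0.0027 ± 0.30, that is, close to 0. A1757 had the lowest TPM of the 5 WT Control mice for 6 of 6 axis genes.

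The ratio of Tnfsf11 to Tnfrsf11b compares the ligand with its decoy inside each mouse and needs no scaling between libraries. In WT Control mice, the ratio of TPM was 0.274, 0.375, 0.423, 0.490 and 0.575. In WT T1D mice, it was 0.309, 0.661, 0.760, 0.981, 1.24 and 1.27, so 5 of 6 lay above every WT Control mouse and A1758 lay among them. A1787 and A3905, at 1.24 and 1.27, were the 2 mice of the series with more Tnfsf11 than Tnfrsf11b. KO Control mice ran from 0.289 to 0.648 (median 0.443) and KO T1D mice from 0.230 to 0.748 (median 0.359), both overlapping the WT Control range. The mean ratio was 0.427 ± 0.114 in WT Control and 0.871 ± 0.369 with T1D, and 0.459 ± 0.122 in KO Control and 0.425 ± 0.207 with T1D (SD).

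The ratio was tested on the log2 scale with 0.1 TPM added to each gene, by two-sided exact permutation of the mice, in 5 comparisons. In WT mice, T1D differed from Control by 0.90, or 1.86-fold (exact permutation p = 0.0455, adjusted p = 0.0758). In KO mice, the difference was -0.19 (exact permutation p = 0.537, adjusted p = 0.671). The T1D changes of the genotypes differed by -1.09 (exact permutation p = 0.0392, adjusted p = 0.0758). For this p, genotype labels were permuted within Control and within T1D mice. A genotype difference among T1D mice alone can also make it small, so it is not a test of unequal T1D changes only. KO T1D was below WT T1D by 0.99 (difference -0.99, exact permutation p = 0.0390, adjusted p = 0.0758), while KO Control and WT Control differed by 0.097 (exact permutation p = 0.682). None of the 5 passed an adjusted p of 0.05. Counting error of the log2 ratio was 0.18 to 0.33 per mouse, against SDs between mice of 0.39 in WT Control and 0.73 in WT T1D.

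The ratio rested on a few mice. Without A3905 and A3906, the WT difference was 0.65 (exact permutation p = 0.159, adjusted p = 0.265) and the difference between genotypes -0.85 (exact permutation p = 0.124, adjusted p = 0.265). Without A1758, the 2 values were 1.15 and -1.35, each with an adjusted exact permutation p of 0.0216. Restricted to numbers A36 to A39 they were 1.22 and -1.41, with exact permutation p values of 0.0476 after adjustment. In the A17 mice, the WT Control ratio was 0.423 and the 3 WT T1D ratios were 0.309, 0.661 and 1.24, on both sides of it.

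**Figure D3:**
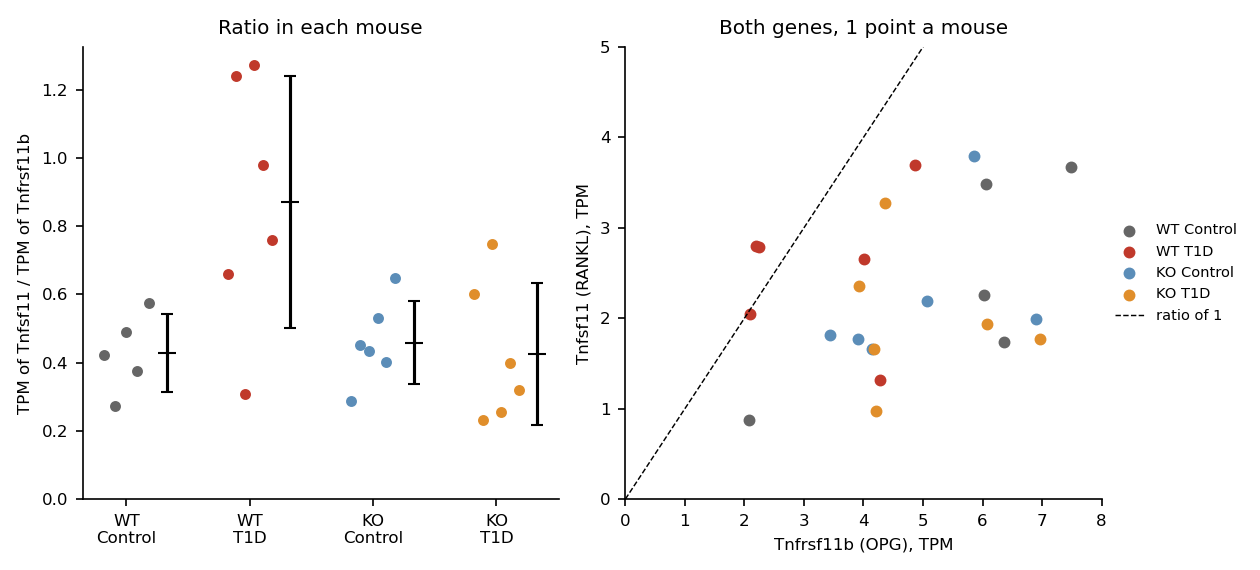
Left, the ratio of Tnfsf11 TPM to Tnfrsf11b TPM in each mouse by group, with the mean ± SD beside the points. Right, Tnfsf11 TPM against Tnfrsf11b TPM, 1 point a mouse, with a dashed line at a ratio of 1. In WT T1D, 5 of 6 mice lie above the highest WT Control ratio of 0.575.

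Tnfrsf11a, the RANK gene on osteoclast precursors, had a level of 1.39, 1.98, 2.30, 2.42 and 2.65 TPM in WT Control. WT T1D mice ran from 1.19 to 1.70 TPM (median 1.34), and 3 of 6 lay under the lowest WT Control value. On counts the log2 fold change was -0.28 ± 0.19 (SE, edgeR adjusted p = 0.399). KO Control mice ran from 1.26 to 2.12 TPM (median 1.73) and KO T1D mice from 1.20 to 2.19 TPM (median 1.27), a log2 fold change of -0.17 ± 0.18. The T1D changes of the genotypes differed by 0.11 ± 0.27 (edgeR adjusted p = 0.907).

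Csf1, the gene of the M-CSF ligand, was at 30.3, 37.0, 39.02, 39.7 and 44.6 TPM in WT Control. WT T1D mice ran from 22.2 to 38.7 TPM (median 25.5), with 5 of 6 below A1757 and A3909 among the Control mice. The log2 fold change on counts was smaller than the TPM values would give, -0.16 ± 0.12 (SE, edgeR adjusted p = 0.427), and was 0.015 in the A36 to A39 mice. KO Control mice ran from 28.2 to 35.0 TPM (median 32.6) and KO T1D mice from 25.6 to 33.1 TPM (median 28.1), a log2 fold change of -0.12 ± 0.11.

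Csf1r, the M-CSF receptor (gene ID 12978, chromosome 18, 61105572 to 61131139) and the most abundant of the 6 transcripts, was at 90.4, 109, 113, 121 and 127 TPM in WT Control. WT T1D mice ran from 68.0 to 97.5 TPM (median 82.5), and the groups overlapped. The log2 fold change on counts was -0.14 ± 0.085 (SE, edgeR adjusted p = 0.354) in WT mice and -0.013 ± 0.081 in KO mice, whose Control libraries ran from 78.9 to 113 TPM and T1D libraries from 84.6 to 106 TPM. Csf1r was the 1 axis gene with an unadjusted p under 0.05 between the genotypes without diabetes, at -0.18 ± 0.085 in KO Control against WT Control (edgeR adjusted p = 0.999). Of all tested genes, 4.8% had such a p. By CPM, 4 of 6 KO Control mice were below every WT Control mouse.

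The calls for 5 of the 6 genes changed when the scale and the tool were changed together. On the TPM scale, the median of all tested genes shifted by -0.24 in WT T1D (limma on log2 of TPM + 1), while the erythroid genes summed to 287685 to 370998 TPM in WT Control and 335628 to 473259 in WT T1D. limma on that scale called 35.9% of all tested genes (5071 lower and 83 higher) and 5 of the 6 axis genes, all lower, with Csf1 at -0.49, Csf1r at -0.43, Tnfrsf11a at -0.39, Tnfrsf11b at -0.60 and Pth1r at -1.28. Relative to the median gene these were -0.24, -0.19, -0.15, -0.36 and -1.04, and Tnfsf11 was 0.34. On the count scales the median gene lay at -0.011 with edgeR's TMM and at -0.0062 with DESeq2's size factors.

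**Figure D4:**
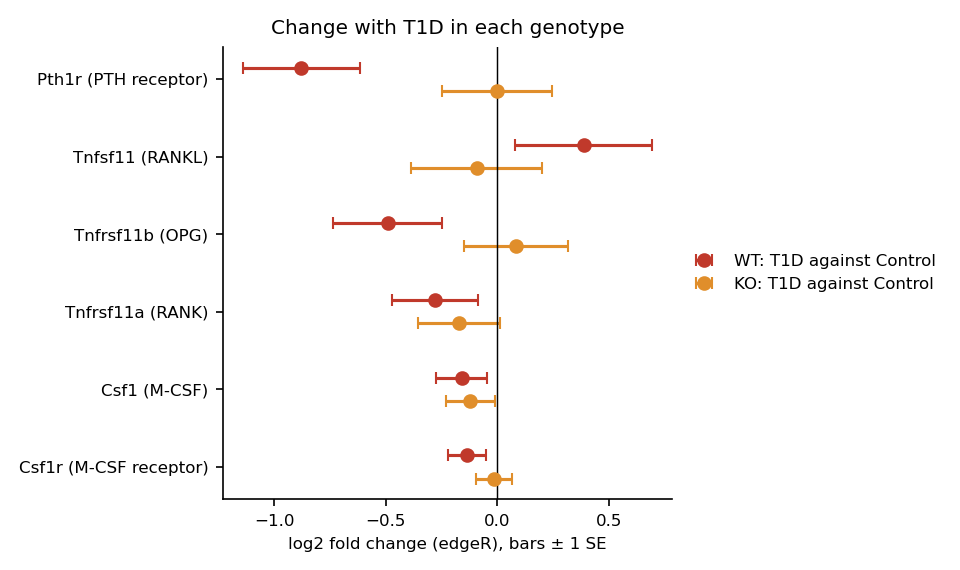
Log2 fold change of T1D against Control from edgeR (horizontal axis) for each gene, with WT and KO mice as separate points and bars of ± 1 SE. Pth1r in WT mice lies at -0.88 and in KO mice at -0.00093, and none of the 12 values passed an adjusted p of 0.05.

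In the other comparisons across the table, no axis gene passed the edgeR threshold either. Of all tested genes, 0% passed for T1D in KO mice and 0% for the difference between the T1D changes of KO and WT, and DESeq2 also called 0 in both. At an unadjusted edgeR p under 0.05, there were 452 and 1467 genes in these comparisons, of which 0 and 1 were axis genes. The share that passed was 0.0278% for KO against WT in Control mice, 0.0905% for KO against WT in T1D mice and 0.111% for T1D averaged over both genotypes. In each of the last 3, 1 of the 6 axis genes had an unadjusted edgeR p under 0.05, namely Csf1r in Control mice and Pth1r in the other comparisons. Of all tested genes, 4.8%, 17.1% and 16.4% had such a p in these comparisons. DESeq2 called 0 of 6 in these 3 comparisons.

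**Figure D5:**
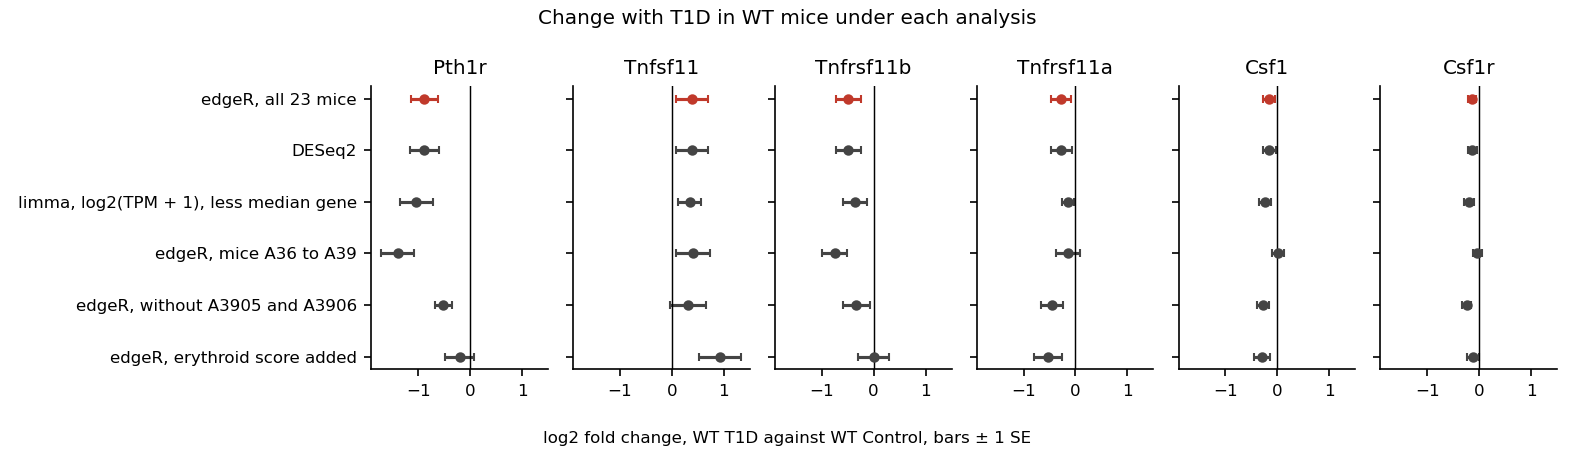
Log2 fold change of WT T1D against WT Control (horizontal axes, bars of ± 1 SE) for the 6 genes under 6 analyses, with the limma values given relative to the median gene. Pth1r lies below 0 in all 6, from -1.40 in the A36 to A39 mice to -0.20 with the erythroid score, and Tnfsf11 lies above 0 in all 6.

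Genes around the axis were read from 4 lists. Of 36 tested genes of PTH receptor signaling, 0 passed in WT T1D by edgeR or DESeq2. There were 9 at an unadjusted edgeR p under 0.05, as were 22.2% of all tested genes, and their median log2 fold change was -0.035, against -0.011 over all genes. The 2 with the lowest p were Gna11, a G protein alpha subunit that couples the receptor to phospholipase C, and Sik3, a salt-inducible kinase inhibited downstream of it. Gna11 went from 50.2 ± 5.07 to 39.3 ± 9.01 CPM (SD, edgeR adjusted p = 0.102) and Sik3 from 82.2 ± 9.62 to 69.0 ± 9.61 CPM (adjusted p = 0.132). Restricted to mice A36 to A39, 7 of the 36 passed, with 15.4% of all tested genes passing.

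Of 34 tested genes of RANK signaling, 1 fell and 0 rose in WT T1D by edgeR, with a median log2 fold change of -0.015. Over all tested genes 2.33% passed, so 1 of 34 is near that share. The gene that fell was Lgr4, a receptor that also binds RANKL and opposes RANK, from 18.7 ± 3.04 to 11.4 ± 3.81 CPM (SD), a log2 fold change of -0.71 ± 0.19 (SE, edgeR adjusted p = 0.0494). All 6 diabetic WT mice lay lower than any WT Control mouse. Tab2, an adaptor that activates the kinase TAK1 downstream of RANK, had 229 ± 7.75 CPM in WT Control and 275 ± 25.1 in WT T1D (edgeR adjusted p = 0.0558), and all 6 WT T1D mice were above every WT Control mouse. Lgr4 and Tab2 were picked for the lowest p of the list in WT mice. Their separation rests on the same values and adds no support. Without A3905 and A3906, 0 genes of this list passed, and neither did any other gene of the table.

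Of 34 tested genes of M-CSF receptor signaling, 0 passed by edgeR or DESeq2, with a median log2 fold change of -0.0070. There was 1 at an unadjusted edgeR p under 0.05, against 22.2% of all tested genes. Mitf, a transcription factor of osteoclast differentiation, was at 7.33 ± 0.688 CPM in WT Control and 5.43 ± 1.39 in WT T1D (SD, edgeR adjusted p = 0.162), with 5 of 6 WT T1D mice below every Control mouse. Dok1, a docking protein that dampens kinase signaling, was at 30.7 ± 3.96 and 35.8 ± 4.59 CPM (adjusted p = 0.243). Mitf and Dok1 were picked for the lowest p of the list in this comparison.

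Of 40 tested regulators of RANKL or OPG expression, 3 fell and 0 rose in WT T1D by edgeR, with a median log2 fold change of -0.16. Over all tested genes 2.33% passed. Lifr, the receptor of leukemia inhibitory factor, fell from 158 ± 21.5 to 99.1 ± 22.2 CPM (log2 fold change -0.67 ± 0.11, edgeR adjusted p = 0.0174). Runx2, the transcription factor of the osteoblast lineage, fell from 102 ± 7.01 to 64.5 ± 21.3 CPM (-0.66 ± 0.16, adjusted p = 0.0451). Esr1, an estrogen receptor, fell from 13.0 ± 2.25 to 8.95 ± 1.49 CPM (-0.54 ± 0.12, adjusted p = 0.0367). In WT T1D, 5 of 6 mice for Lifr, 5 of 6 for Runx2 and 4 of 6 for Esr1 were below every WT Control mouse. These genes were picked because they passed in the same comparison, so the overlap adds no support. Without A3905 and A3906, or with the erythroid covariate, 0% of all tested genes passed and so 0 of this list. With DESeq2 there were 6, with 6.98% of all tested genes passing. In mice labelled KO, edgeR and DESeq2 called 0 genes of these 4 lists, since neither called any gene in the table.

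The cells that make or answer the axis were read from the 12 marker lists. Osteoclast genes, the output of RANKL and M-CSF signaling, had 0 of 13 past the edgeR threshold in WT T1D, with 2 at an unadjusted p under 0.05 (22.2% over all genes) and a median log2 fold change of 0.050. Their summed level, led by Acp5 and Mmp9, ran from 1635 to 2519 TPM in WT Control and from 1097 to 2716 in WT T1D. A3905 and A3906, the mice with the lowest Pth1r, were at 2425 and 2716. WT T1D mice A1764, A1787 and A1758, with Pth1r at 52.9 to 59.9 TPM, were at 1396, 1130 and 1097, below every WT Control mouse. In KO Control the osteoclast genes summed to 1328 to 1979 TPM and in KO T1D to 1200 to 2147. By edgeR, 12 of the 13 were lower in KO than in WT among Control mice, with a median log2 fold change of -0.31. Among T1D mice 12 of 13 were lower too, with a median of -0.45, and 0 passed in either comparison. At an unadjusted p under 0.05 there were 1 and 4, against 4.8% and 17.1% of all tested genes. Monocyte and macrophage genes, which mark the cells that carry Csf1r, had 0 of 15 past the threshold in WT T1D with 9 at an unadjusted edgeR p under 0.05 (22.2% over all genes) and a median log2 fold change of -0.22. Erythroid genes rose in 7 of 14 and fell in 0 with a median of 0.64. Osteoblast genes fell in 2 of 11 (Ibsp and Runx2, the latter also in the list of RANKL regulators) with a median of -0.75. T cell genes fell in 1 of 9 (Cd4) with a median of -0.26. Over all tested genes 2.33% passed in WT T1D. No gene passed in the lists of osteocytes (median -0.36), chondrocytes (-1.37), marrow stroma and adipocytes (0.19), neutrophils (0.24), B cells (-0.096), skeletal muscle (0.16) or endothelium (-0.13). Without A3905 and A3906, none of these marker genes passed, as no gene of the table did. In mice labelled KO, 0 genes of the 12 lists passed. The part of these cells in the values of the axis genes was not tested.

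Within groups, no pair of axis genes was correlated past the threshold. Of 15 pairs of axis genes, over 23 mice centered on their group means, 0 passed an adjusted permutation p of 0.05. The pair with the lowest p was Pth1r and Tnfrsf11b, with Pearson's r of 0.58 (permutation p = 0.00365, adjusted p = 0.0547) and Spearman's rho of 0.58 (permutation p = 0.0101, adjusted p = 0.151). Without A3905 and A3906, the mice farthest from the median of Pth1r, r was 0.62. Tnfrsf11a and Csf1 followed with r of 0.52 (permutation p = 0.0143, adjusted p = 0.108). Pth1r and Tnfsf11 had r of 0.046 (permutation p = 0.850, adjusted p = 0.850), and Tnfsf11 and Tnfrsf11b had r of 0.31 (permutation p = 0.263, adjusted p = 0.485), which was -0.047 without A1757 and A3682. In the A17 and A36 to A39 series these pairs were not correlated separately, because the A17 series holds 4 mice.

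The genes most like each axis gene were found by Pearson's r of log2 (CPM + 0.5) over all 23 mice, group differences included, among 13307 genes with a mean of at least 1 CPM. The points share library depth and cell composition, so r is given as a description. Pth1r was most like Plcd1 (r = 0.99), Gprc5c (0.98) and Insc (0.97), and without A3905 and A3906 these were 0.93, 0.93 and 0.89. Tnfrsf11b was like Ackr3 (0.85) and Chpt1 (0.83). Csf1r was like Fndc10 (0.81) and Mfsd7a (0.79), and Csf1 most like Pheta1 (0.78), Sema7a (0.75) and Cd302 (0.72). Tnfrsf11a was most like Glis3 (0.78), Eif5a2 (0.73) and Lrrc27 (0.72), and Tnfsf11 most like Slc2a9 (0.76), Aoc3 (0.74) and Ephx2 (0.74). No axis gene was among the 3 closest genes of another.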

How the data were processed

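The 23 libraries were grouped by the genotype and diabetes labels. The authors deposited expected counts per gene, which RSEM estimates and which had been rounded to whole numbers, and TPM values, calculated by the provider. The libraries were poly(A)-selected, strand-marked and read from both ends on DNBSEQ. SOAPnuke removed poor reads, and HISAT and Bowtie2 aligned the rest to GRCm38.p6. Coordinates and promoter windows were taken from RefSeq on the same build. Of 67228 gene entries, 14364 reached 10 counts in 5 or more mice and were tested in R 4.3.3 with edgeR 4.0.16 (TMM, quasi-likelihood, 4 group means fitted together), and p values were adjusted by Benjamini-Hochberg over these genes with a threshold of 0.05. DESeq2 1.42.0 on the same counts and limma 3.58.1 on log2 (TPM + 1) and log2 (TPM + 0.1) were alternatives, as were RLE scaling, no filter, fits to 2 groups, an erythroid covariate, and leaving out mice. The fold changes are log2 values with SE taken from the quasi-likelihood F statistic.

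The ratio was tested with exact permutation over mice, and pairs of genes with 100000 permutations within groups, in Python 3.11.15 with scipy 1.17.1, numpy 2.4.6 and pandas 2.3.3. For the difference between the T1D changes of the genotypes, genotype labels were permuted within Control and within T1D mice. Figures were drawn with matplotlib 3.10.9. The count fit was tested on simulated data. The axis genes, the 4 pathway lists and the 12 marker lists were chosen with earlier results of these data known. Beside the axis genes, the text names up to 3 genes of each pathway list past the threshold in WT mice with the largest change, or the 2 with the lowest p where fewer than 2 passed, the 3 genes most like each axis gene, and the 2 most abundant genes of a marker list. Some genes that met this rule are left out here. All p values take the mouse as the unit, and each mouse gave 1 library.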

Additional observations from a re-analysis of the deposited data

Results flagged for a closer look

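In 28 groups of 5 or 6 mice (6 genes by CPM and the log2 ratio, in 4 groups each), 3 held a mouse whose gap to its nearest neighbor was large for the group's range by Dixon's test, which flags about 1 in 20 groups by chance. Tnfrsf11b in WT Control mouse A1757 was 4.27 CPM, the lowest of its group. Tnfsf11 in KO Control mouse A3766 was 5.35 CPM, the highest of its group. Csf1r in KO T1D mouse A3683 was 272 CPM, the highest of its group.

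The change with T1D of the Tnfsf11 to Tnfrsf11b ratio differed between genotypes by -1.09 on the log2 scale (exact permutation p = 0.0392), and by the p adjusted over 5 comparisons, 0.0758, it did not pass. Genotype labels were permuted within Control and within T1D mice, so a genotype difference among T1D mice alone can lower this p.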

How the results depend on the processing

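All values are log2 fold changes unless said, and the cause of each change was not tested. No paired analysis was possible because no mouse number is shared between groups. In WT mice, T1D against Control passed for Pth1r with DESeq2 (-0.88), with limma on TPM + 1 (-1.28) and on TPM + 0.1 (-1.31), and among mice A36 to A39 (-1.40). For Tnfrsf11b it passed with limma on TPM + 1 (-0.60) and among mice A36 to A39 (-0.75), and it turned to 0.0027 with the erythroid covariate. On TPM + 1 and TPM + 0.1, limma gave -0.39 and -0.58 for Tnfrsf11a, -0.49 and -0.50 for Csf1, and -0.43 and -0.44 for Csf1r, all past the threshold, on a scale where the median gene was at -0.24 and -0.29. In the A36 to A39 mice Csf1 turned to 0.015. The number of the 6 genes called in WT mice was thus 0 with edgeR, 1 with DESeq2, 5 and 4 with limma, and 2 among mice A36 to A39. Over all tested genes the calls were 334 with edgeR, 1002 with DESeq2, 5154 and 5173 with limma, and 2205 among mice A36 to A39, of 14364. They were 88 without the filter on low counts, and 0 in a fit to the 2 WT groups alone, without A3905 and A3906, or with the erythroid covariate. For KO against WT in T1D mice, limma called 1 of the 6 genes at either pseudocount. It called 8.12% of all tested genes on TPM + 1 and 8.25% on TPM + 0.1. Among mice A36 to A39, 2 of the 6 passed in this comparison, with 10.7% of all tested genes passing. For T1D averaged over genotypes, limma called 2 of the 6 at either pseudocount. The shares of all tested genes were 7.7% on TPM + 1 and 6.62% on TPM + 0.1. The log2 ratio of Tnfsf11 to Tnfrsf11b passed in the A36 to A39 mice in WT (1.22), between genotypes (-1.41) and for KO against WT in T1D (-1.29).

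Other directions turned as follows. With the erythroid covariate, Pth1r in KO mice was 0.096, Tnfsf11 in KO against WT Control 0.018, Tnfrsf11a in KO against WT T1D 0.014, and Tnfrsf11b averaged over genotypes 0.087. In the A36 to A39 mice, the difference between genotypes was -0.040 for Tnfrsf11a and -0.14 for Csf1. For KO against WT in T1D mice, limma at TPM + 1 and TPM + 0.1 gave 0.043 and 0.062 for Tnfrsf11a, 0.090 and 0.094 for Csf1, and 0.16 and 0.16 for Csf1r, and without A3905 and A3906 Tnfrsf11a was 0.011 and Csf1r 0.043. Tnfsf11 averaged over genotypes was -0.00076 with limma at TPM + 1. On TPM, the within-group r turned from negative values to 0.28 for Pth1r and Csf1, 0.26 for Pth1r and Csf1r, and 0.10 for Tnfrsf11b and Tnfrsf11a.

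Leaving out 1 mouse at a time, Pth1r in WT mice ran from -1.004 to -0.69 and passed without A1757, A1764, A1758 or A3909, so 0 or 1 of the 6 genes was called. Tnfrsf11b in WT mice ran from -0.69 to -0.39. For Pth1r, the difference between genotypes ran from 0.68 to 1.003, and KO against WT in T1D from 0.46 to 0.77. The log2 ratio ran from 0.75 to 1.15 in WT mice, from -1.35 to -0.94 between genotypes, from -1.25 to -0.85 for KO against WT in T1D, and from -0.049 to 0.22 for KO against WT in Control, and the first 3 passed without A1758. Changes in KO mice ran from -0.0998 to 0.043 for Pth1r, -0.28 to 0.098 for Tnfsf11, -0.066 to 0.20 for Tnfrsf11b and -0.050 to 0.015 for Csf1r. Differences between genotypes ran from -0.0076 to 0.21 for Tnfrsf11a and -0.025 to 0.099 for Csf1, and Tnfsf11 in KO against WT Control from -0.27 to 0.10. Lgr4 was past the threshold by a narrow margin, and 0 genes of the RANK signaling list passed without the filter on low counts.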
